A study of Mus musculus with 17 samples.

Results

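The measurements below concern the genes that take up, store, export and sense iron in mouse hippocampus, with the transferrin receptor Tfrc at their head. Hippocampi of 17 adult male C57BL/6J mice were profiled on Affymetrix whole-genome mouse expression arrays, with 1 animal on each array. In the sleep-deprived group, 8 mice were kept awake in their home cages for 5 h by gentle handling. In the undisturbed group, 9 mice were left alone in their home cages over the same time of day. Both groups carried the same background strain, were housed singly with food and water freely available, and had been handled daily for 6 days beforehand. Their age is 2 months in the sample labels and 2 to 4 months in the growth protocol. The design holds no animals that were handled during the 5 h and still slept, so loss of sleep cannot be told apart from handling.

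Of 10 named genes, 8 had probe sets whose platform annotation gives that gene as the only symbol: Tfrc, Steap3, Slc11a2, Fth1, Slc40a1, Hamp, Ireb2 and Aco1. They were read by 20 of the 45037 probe sets that are not manufacturer's controls, and all 20 are described. Transferrin (Trf) and the ferritin light chain (Ftl1) appear only on 4 probe sets that carry several symbols, so no level is given for either. Another 3 probe sets of the array's own controls read the 3′, middle and 5′ parts of the mouse transferrin receptor transcript and stand beside Tfrc. The genes were chosen by their function with the difference in signal between the groups already known. That difference is therefore given as a description, with its standard error. Where calls of these genes at an adjusted p under 0.05 are counted, they describe the same difference and are no independent support. The relations between animals within a group are tested.

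Iron circulates bound to transferrin, which cells take up through the transferrin receptor. Inside the endosome the iron is reduced, by Steap3 in red cell precursors, and moved to the cytosol by the divalent metal transporter Slc11a2. Iron that is not used is stored in ferritin or leaves through ferroportin, Slc40a1, which the peptide hormone hepcidin, encoded by Hamp, removes from the cell surface. When iron is scarce, the iron-regulatory proteins Aco1 and Ireb2 bind hairpins in messenger RNA, which stabilises the transferrin receptor message and blocks translation of ferritin. In the brain, endothelial cells and neurons carry transferrin receptor, and oligodendrocytes are rich in iron and ferritin.

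Because Tfrc is the gene the values below turn on, the 250 bases before the first of its 2 annotated starts are shown. They lie on the plus strand at chr16:32608646-32608895 of mouse GRCm38.p6, as given by RefSeq, and capitals mark the only CCAAT box, 124 bases before that start.
Tfrc upstream region: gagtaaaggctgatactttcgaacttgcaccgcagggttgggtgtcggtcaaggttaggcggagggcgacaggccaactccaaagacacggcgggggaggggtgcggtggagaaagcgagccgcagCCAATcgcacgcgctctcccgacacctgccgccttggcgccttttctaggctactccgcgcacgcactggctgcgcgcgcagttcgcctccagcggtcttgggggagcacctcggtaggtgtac
A CCAAT or its complement ATTGG was present in 33.8% of the 32851 RefSeq windows of this length. The window before the other Tfrc start held ACGTG, the core letters of hypoxia response elements, 228 bases before that start, and TGACGT, found in cyclic AMP response elements, 213 bases before it. That window overlaps the transcript of the earlier start, so that ACGTG spans the earlier start and TGACGT lies within that transcript. Counted on both strands, these occurred in 16.6% and 6.47% of all windows. Among 12 windows of 7 of the named genes, that Tfrc window was the only 1 with ACGTG and the only 1 with TGACGT. A match of letters is a description of the window and says nothing about binding.

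The median log2 signal of single arrays ran from 6.14 to 6.22, and the 9 marker genes of the hippocampal formation averaged between 7.38 and 11.8. Arrays differed in tissue at the edge of the dissection. The mean of 11 choroid plexus markers was at least 6.66 on 5 arrays, 3 from sleep-deprived and 2 from undisturbed mice, and at most 6.13 on the other 12 arrays. Its leading marker Ttr, a thyroid hormone carrier of that tissue, differed by 0.39 between the groups (adjusted p = 0.874, limma). The RNA quality index, the 3′ minus 5′ signal of the Gapdh and actin controls, was highest on the array of sleep-deprived replicate 5, at 0.417, against at most 0.302 on the other 16 arrays. That array is also 1 of the 5 rich in choroid plexus markers. For some probe sets below, the values are also given without these arrays.

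Tfrc, which brings transferrin-bound iron into the cell, had a lower signal in sleep-deprived hippocampus on each of its 6 probe sets, controls included. On its brightest probe set, 1452661_at, the log2 signals of sleep-deprived replicates 1 to 8 were 11.09, 10.92, 11.00, 11.13, 10.91, 11.12, 11.07 and 11.05. Those of undisturbed replicates 1 to 9 were 11.31, 11.34, 11.45, 11.53, 11.40, 11.48, 11.39, 11.41 and 11.23. Every sleep-deprived array lay below every undisturbed array, with a gap between the groups and a similar spread within each. The means were 11.04 ± 0.088 in sleep-deprived mice (SD, n = 8) and 11.39 ± 0.093 in undisturbed mice (SD, n = 9). The log2 difference, sleep-deprived minus undisturbed, was -0.36 with a moderated standard error of 0.048, which is a signal 1.28-fold lower in sleep-deprived mice. In bulk tissue, fewer cells of a type and less RNA per cell cannot be told apart.

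The dimmer Tfrc probe sets gave smaller differences and overlapping groups. On 1422966_a_at the log2 signal averaged 8.29 ± 0.22 in sleep-deprived mice, with a lowest, median and highest value of 7.84, 8.33 and 8.53. It averaged 8.58 ± 0.14 in undisturbed mice, with 8.40, 8.53 and 8.81. The difference was -0.29 (SE 0.079), and 8 of 8 sleep-deprived arrays lay below the undisturbed mean. The lowest value was that of replicate 5, the array with the highest RNA quality index, and without it the difference was -0.23. On 1422967_a_at the signal was 6.56 ± 0.23 in sleep-deprived mice, ranging over 6.21 to 6.96, and 6.78 ± 0.25 in undisturbed mice, ranging over 6.33 to 7.05. There the difference of -0.22 (SE 0.10) was close to the spread within either group, and 7 of 8 sleep-deprived arrays lay below the undisturbed mean. That difference was -0.17 without replicate 5 and -0.18 without the arrays rich in choroid plexus markers.

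The array's control probe sets placed the lower signal along the length of the transcript. The 3′ control averaged 7.52 ± 0.11 in sleep-deprived mice and 7.77 ± 0.14 in undisturbed mice, a difference of -0.25 (SE 0.061). For the middle control the means were 5.37 ± 0.15 in sleep-deprived mice and 5.62 ± 0.12 in undisturbed mice, which differed by -0.24 (SE 0.064). At the 5′ end the signal was 5.72 ± 0.22 in sleep-deprived mice and 5.96 ± 0.18 in undisturbed mice, with a difference of -0.25 (SE 0.088). The groups overlapped on each control. The 3′ minus 5′ signal within the receptor transcript had medians of 1.81 in sleep-deprived and 1.80 in undisturbed mice. Without sleep-deprived replicate 5 the 3′, middle and 5′ differences were -0.23, -0.21 and -0.18. Without the 5 arrays rich in choroid plexus markers they were -0.24, -0.20 and -0.21. The 5′ control had r = -0.68 with the RNA quality index between animals of a group (permutation p = 0.019, adjusted p = 0.29) and rho = -0.37. Without the 2 arrays farthest from the median r was -0.056, so that relation rests on those arrays.

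**Figure D1:**
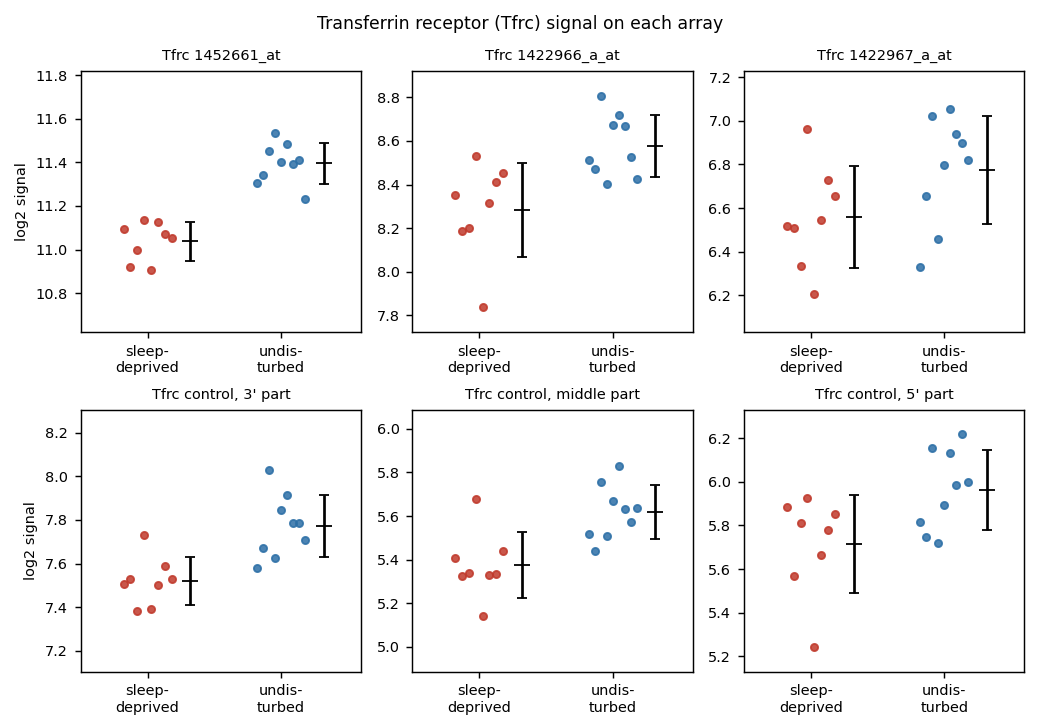
Log2 signal of the 3 Tfrc probe sets and the 3 transferrin receptor controls on each array, with sleep-deprived mice (n = 8) left of undisturbed mice (n = 9). Points are single arrays, bars are the mean ± SD, and each panel spans the same log2 range about its own centre. The groups are separate on 1452661_at and overlap on the other 5 probe sets.

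The Tfrc probe sets also varied together between animals of the same group. With each array centred on its group mean, all 15 pairs of the 6 probe sets correlated positively over 17 arrays, with Pearson's r between 0.42 and 0.90. Of these, 11 passed a two-sided permutation test within groups by both r and Spearman's rho after adjustment over the 15 pairs. The closest pair was 1422967_a_at and the 3′ control, with r = 0.90 (permutation, adjusted p = 0.00015) and rho = 0.90 (permutation, adjusted p = 0.00045). The unadjusted p of that r, 1e-05, is the smallest that this resampling can give, and r was 0.85 without the 2 arrays farthest from the median. Over the 17 arrays, of the 5 relations of the brightest probe set, 1452661_at, only that to 1422966_a_at passed, with r = 0.60 (permutation, adjusted p = 0.015) and rho = 0.56 (permutation, adjusted p = 0.035). Without the 2 arrays farthest from the median, the r of that relation was 0.40 and did not pass (permutation, adjusted p = 0.17). Without the 5 arrays rich in choroid plexus markers it was 0.74 and passed (permutation, adjusted p = 0.015). With 1 array left out it ran from 0.49 to 0.82. Within the sleep-deprived arrays r was 0.83 and within the undisturbed arrays 0.35, a difference that was not tested. The other 4 relations of 1452661_at had r between 0.42 and 0.49 and did not pass. After quantile normalization that to 1422966_a_at did not pass by r (r = 0.41, permutation, adjusted p = 0.099). The relation to the middle control then passed by r (r = 0.47, permutation, adjusted p = 0.048). Without the 5 arrays rich in choroid plexus markers, the r of 1452661_at with the other probe sets lay between 0.65 and 0.74. All 15 pairs then passed by r. Probe sets of a single transcript are not independent measurements of it, and they may share probes.

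**Figure D2:**
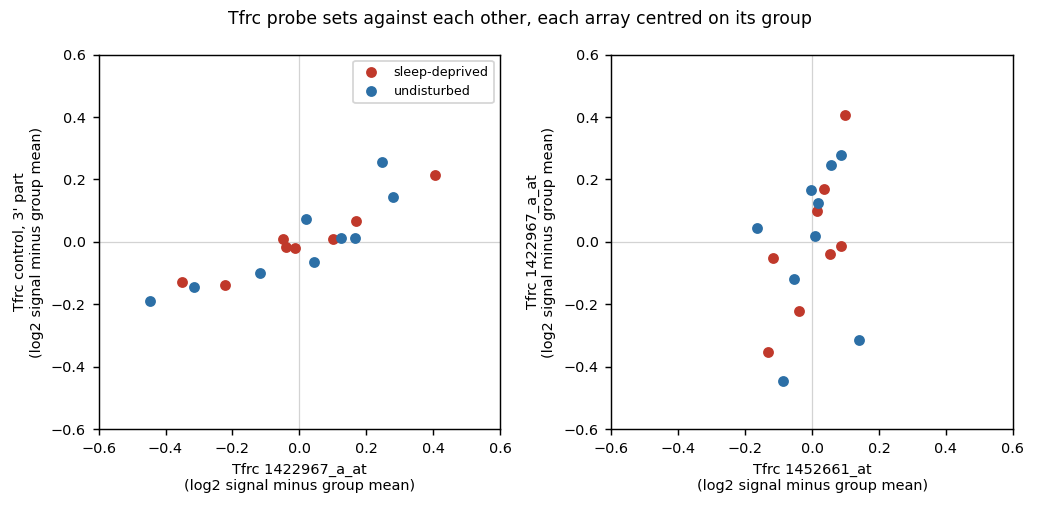
Pairs of Tfrc probe sets as log2 signal minus the group mean, 1 point per array, red for sleep-deprived (n = 8) and blue for undisturbed mice (n = 9). Left, 1422967_a_at on the horizontal axis against the 3′ control, with r = 0.90. Right, 1452661_at on the horizontal axis against 1422967_a_at, with r = 0.42 over all 17 arrays and 0.71 without the 5 arrays rich in choroid plexus markers.

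The genes whose pattern between animals was most like that of Tfrc 1452661_at, by Pearson's r of group-centred signal over 17 arrays among all 18193 genes, were Oser1 with r = 0.86, Smim10l2a with 0.86, Rpap3 with 0.85, Sap30l with 0.85 and Sucla2 with 0.85. They were chosen for this value, so it is given without a test, and the arrays share their normalization. Sucla2, a subunit of succinyl-CoA ligase of the mitochondrial citric acid cycle, differed between the groups by -0.050 (adjusted p = 0.58, limma). Rpap3, a component of a chaperone complex that assembles RNA polymerases, differed by -0.21 (adjusted p = 0.046, limma). Oser1, Smim10l2a and Sap30l differed by 0.0043, -0.18 and -0.10 (adjusted p = 0.97, 0.068 and 0.37, limma).

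Slc11a2, which carries ferrous iron out of the endosome, had separate groups on 1 of its 4 probe sets. On 1426441_at the log2 signals of sleep-deprived replicates 1 to 8 were 7.72, 7.65, 7.36, 7.82, 7.62, 7.81, 7.72 and 7.66. Those of undisturbed replicates 1 to 9 were 8.02, 7.97, 8.10, 8.02, 8.00, 8.02, 7.95, 7.85 and 7.84. The groups did not overlap, although the highest sleep-deprived and lowest undisturbed arrays nearly touched. The means were 7.67 ± 0.14 in sleep-deprived and 7.97 ± 0.085 in undisturbed mice, a difference of -0.30 (SE 0.057), or 1.23-fold lower in sleep-deprived mice. Without the 5 arrays rich in choroid plexus markers it was -0.25.

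The other Slc11a2 probe sets did not share this difference. The mean of 1452078_a_at was 7.17 ± 0.097 in sleep-deprived and 7.17 ± 0.081 in undisturbed mice. On 1417584_at it was 6.68 ± 0.14 in sleep-deprived and 6.59 ± 0.063 in undisturbed mice, a difference of 0.085 (SE 0.053). Without the arrays rich in choroid plexus markers that difference was 0.022. The dimmest, 1441709_at, read 4.23 ± 0.052 in sleep-deprived and 4.31 ± 0.089 in undisturbed mice, which differed by -0.080 (SE 0.044). Between animals of a group, pairs of Slc11a2 probe sets had r between -0.28 and 0.13. Slc11a2 produces transcripts with different 3′ ends, with and without an iron-responsive hairpin, and which of them each probe set reads was not tested.

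Steap3, an endosomal ferrireductase, had log2 differences of 0.068 (SE 0.047) on 1423468_at, -0.038 (SE 0.053) on 1453498_x_at and -0.0050 (SE 0.056) on 1430355_a_at. Its brightest probe set averaged 6.17 ± 0.084 in sleep-deprived and 6.10 ± 0.088 in undisturbed mice, and the groups overlapped on all 3.

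Fth1 encodes the ferritin heavy chain, which oxidises iron and forms the storage shell. Its 2 probe sets were close to the top of the array's range and nearly the same in both groups. On 1427021_s_at the signal was 14.36 ± 0.027 in sleep-deprived and 14.34 ± 0.035 in undisturbed mice, a difference of 0.015 (SE 0.034). On 1448771_a_at it was 13.61 ± 0.098 in sleep-deprived and 13.65 ± 0.063 in undisturbed mice, a difference of -0.031 (SE 0.046). Signals this bright can be compressed, so small differences in abundance may not show.

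Slc40a1, the only known cellular iron exporter of vertebrates, had lower values in sleep-deprived mice on both probe sets, with overlap. On 1417061_at the signal averaged 7.21 ± 0.16 in sleep-deprived mice, with a lowest, median and highest value of 6.92, 7.25 and 7.43. In undisturbed mice it averaged 7.50 ± 0.19, with 7.14, 7.56 and 7.73. The difference was -0.29 (SE 0.078). On 1448566_at the signal was 7.03 ± 0.12 in sleep-deprived mice, over 6.77 to 7.14, and 7.27 ± 0.22 in undisturbed mice, over 7.01 to 7.71, a difference of -0.23 (SE 0.078). On both probe sets 8 of 8 sleep-deprived arrays lay below the undisturbed mean, and the pair had r = 0.52 between animals of a group.

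Endothelial markers are given beside Slc40a1. Of 10 measured endothelial markers, Tek and Slco1a4 were lower in sleep-deprived mice, by -0.26 (adjusted p = 0.040, limma) and -0.32 (adjusted p = 0.0057, limma), and 8 did not pass. The differences of 5 of the 10 were positive, the median was -0.025, and 2.73% of all genes are called lower. The mean over the 10 ran from 7.85 to 8.02 in sleep-deprived and from 7.83 to 8.16 in undisturbed mice. Between animals of a group, Slc40a1 1417061_at and this mean had r = 0.67 (permutation p = 0.0056, adjusted p = 0.17 over 91 relations) and rho = 0.57 (permutation p = 0.025, adjusted p = 0.32). Without the 2 arrays farthest from the median r was 0.48, and it was 0.24 within the sleep-deprived and 0.87 within the undisturbed arrays. With the endothelial mean as a covariate the group difference of 1417061_at was -0.18, and that of 1448566_at was -0.13. Without the 5 arrays rich in choroid plexus markers they were -0.21 and -0.22. The part of endothelial cells in the Slc40a1 difference was not tested.

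Hamp, the hepcidin gene, was dim on both probe sets, at 4.56 ± 0.16 in sleep-deprived and 4.49 ± 0.14 in undisturbed mice on 1419197_x_at. On 1419196_at the signal was 3.94 ± 0.099 in sleep-deprived and 3.89 ± 0.15 in undisturbed mice. The differences were 0.067 (SE 0.069) and 0.048 (SE 0.061). No detection calls were used, so whether Hamp is expressed in these samples was not tested.

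Ireb2, the iron-regulatory protein that is degraded when iron is plentiful, was read by 1 probe set and had the same mean in both groups. The signal was 8.93 ± 0.051 in sleep-deprived and 8.93 ± 0.076 in undisturbed mice, a difference of -0.0077 (SE 0.041). Aco1, the iron-regulatory protein that doubles as cytosolic aconitase, differed between its probe sets. On 1456728_x_at the signal was 8.69 ± 0.21 in sleep-deprived mice, over 8.32 to 8.95, and 8.92 ± 0.12 in undisturbed mice, over 8.68 to 9.10. That difference was -0.23 (SE 0.076), and it was -0.14 without the 5 arrays rich in choroid plexus markers. On 1423644_at the means were 8.26 ± 0.054 in sleep-deprived and 8.29 ± 0.13 in undisturbed mice, a difference of -0.032 (SE 0.052), and on the dim 1447080_at the difference was 0.043 (SE 0.051). Pairs of Aco1 probe sets had r between -0.016 and 0.19 within groups.

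**Figure D3:**
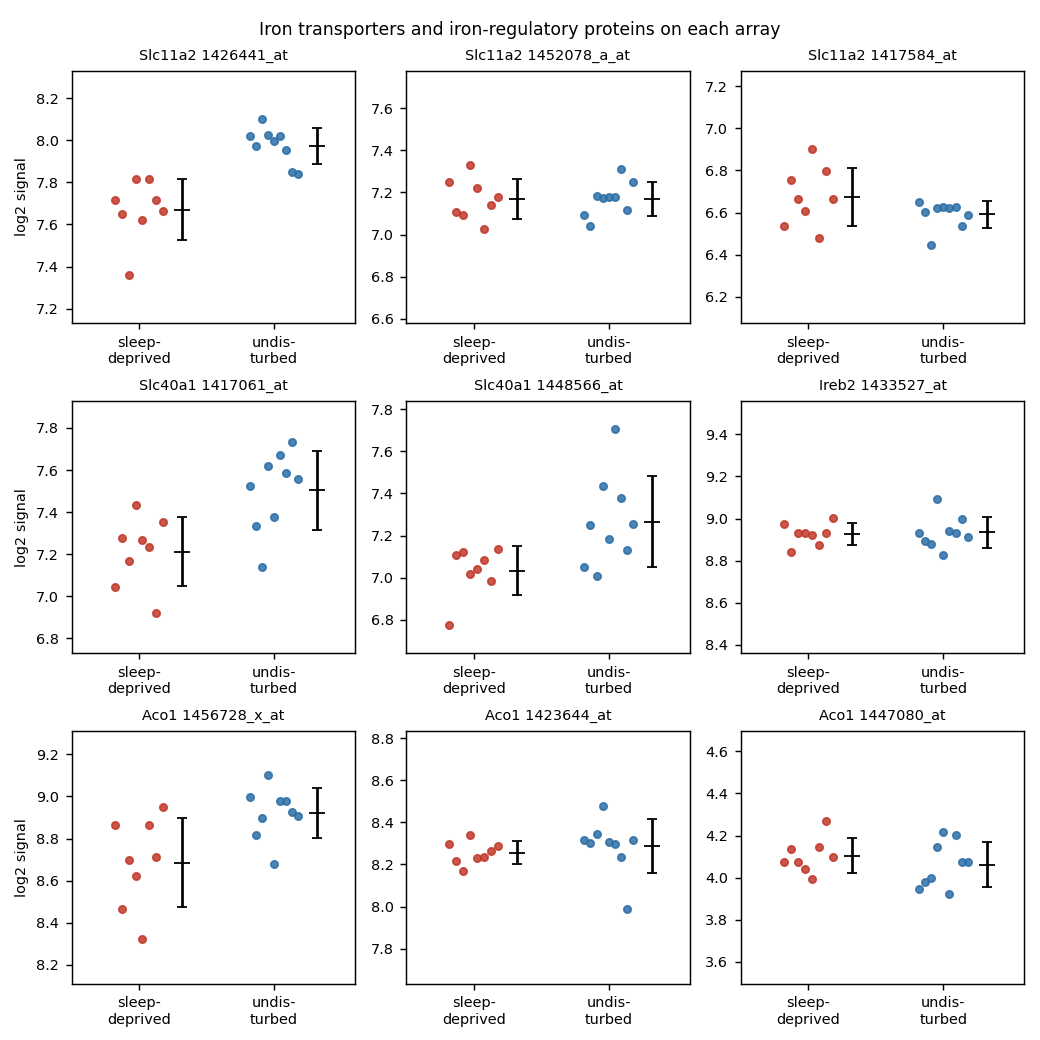
Log2 signal of 3 Slc11a2, 2 Slc40a1, 1 Ireb2 and 3 Aco1 probe sets on each array, with sleep-deprived mice (n = 8) left of undisturbed mice (n = 9). Points are single arrays and bars are the mean ± SD, on axes of equal log2 span. Only Slc11a2 1426441_at separates the groups.

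Over the 20 probe sets, 14 differences were negative, with a median of -0.032 against 0.011 over all probe sets. Only Tfrc 1452661_at and Slc11a2 1426441_at had groups without overlap, both with sleep-deprived mice lower. Groups that do not overlap were found for 0.486% of all probe sets, and for 0.349% with sleep-deprived mice lower. The same 2 were called lower at an adjusted p under 0.05 and none was called higher, where 1.81% of all probe sets are called, 1.23% lower and 0.584% higher. With each gene read by its brightest probe set, Tfrc, Slc11a2 and Slc40a1 of the 8 genes were called lower and none higher, where 3.97% of 18193 genes are called, 2.73% lower and 1.25% higher. The genes were selected on the same contrast, so nothing is read from these counts. Of the called probe sets, Slc11a2 1426441_at, with a difference of -0.30 (SE 0.057), was the nearer to the threshold, though not close to it. Just outside it stood Slc40a1 1417061_at and Tfrc 1422966_a_at, each at -0.29 with larger standard errors.

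**Figure D4:**
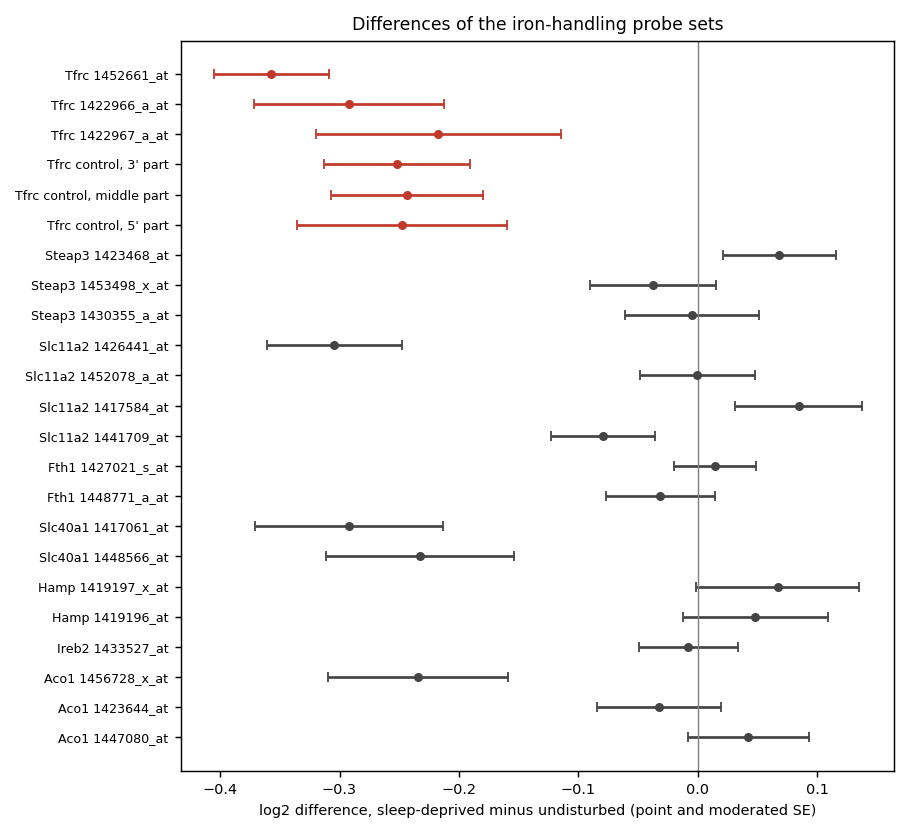
Log2 difference, sleep-deprived minus undisturbed, with its moderated standard error (horizontal bars) for the 20 probe sets and the 3 transferrin receptor controls, the Tfrc transcript in red. All 6 Tfrc rows lie below 0, while rows of Slc11a2 and Aco1 fall on both sides of it.

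Among themselves, the 8 genes showed few relations between animals of a group. Of 28 pairs of brightest probe sets, none passed by Pearson's r, 5 had an unadjusted permutation p under 0.05, and 1 passed by rho. That pair was Tfrc and Slc11a2, with rho = 0.79 (permutation, adjusted p = 0.0098) and r = 0.55 (permutation, adjusted p = 0.14). Without the 2 arrays farthest from the median its r was 0.47, and after quantile normalization its rho was 0.58 and its r 0.45. Ireb2 and Aco1 had the highest r, 0.61 (permutation, adjusted p = 0.14), and Tfrc and Fth1 the lowest, -0.57 (permutation, adjusted p = 0.14). After quantile normalization these r were 0.27 and -0.44. Without the arrays rich in choroid plexus markers they were 0.73 and -0.14.

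Cell type markers and RNA quality were set against the same probe sets. Of 91 relations with 6 marker lists and the RNA quality index, none passed after adjustment by r or rho, and 10 had an unadjusted permutation p of r under 0.05. The highest was that of Aco1 1456728_x_at with the mean of 9 astrocyte markers, at r = 0.77 (permutation p = 0.0018, adjusted p = 0.16) and rho = 0.73. After quantile normalization that r was 0.41. The other Aco1 probe sets, with r = 0.19 and 0.079 to 1456728_x_at within groups, were not set against the lists. Tfrc 1452661_at had r = -0.21 with the endothelial mean and r = 0.18 with the oligodendrocyte mean. Its r was 0.55 with the astrocyte mean (permutation p = 0.025, adjusted p = 0.30) and 0.54 with the neuron mean (permutation p = 0.031, adjusted p = 0.31), with rho = 0.39 and 0.45. After quantile normalization these r were 0.034 and 0.093. The neuron r was 0.89 within the sleep-deprived and 0.18 within the undisturbed arrays, and 0.29 without the 2 arrays farthest from the median. The mean of 9 neuron markers ran from 11.8 to 12.1 in sleep-deprived and from 11.9 to 12.1 in undisturbed mice. The group means of that list differed by -0.079. Neither the astrocyte nor the neuron mean was used as a covariate, and their part in the Tfrc difference was not tested. Of 11 oligodendrocyte markers, Opalin and Aspa were lower in sleep-deprived mice. Their differences were -0.41 (adjusted p = 0.0020, limma) and -0.32 (adjusted p = 0.0019, limma). The other oligodendrocyte markers did not pass, and Mbp, Ermn and Gjb1 had positive differences. The median over the list was -0.080, and 2.73% of all genes are called lower. The oligodendrocyte mean ran from 10.4 to 10.7 in sleep-deprived and from 10.5 to 10.8 in undisturbed mice. With it as a covariate the Tfrc 1452661_at difference was -0.34, with the endothelial mean -0.37, with the RNA quality index -0.36, and without the arrays rich in choroid plexus markers -0.33. None of the measured microglia, blood, astrocyte, neuron, choroid plexus or hippocampal markers passed. The choroid plexus mean falls into separate clusters of arrays and was related to the genes only within the 12 lower arrays, where none of 13 relations passed.

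Beyond these genes, 67 of 74 other genes of iron handling, listed by role, could be measured. Flvcr1, a heme and choline transporter, was the only one that passed, where 3.97% of all genes do. Its log2 signal was 6.92 ± 0.13 in sleep-deprived mice, over 6.70 to 7.07, and 7.16 ± 0.13 in undisturbed mice, over 7.01 to 7.39. It fell by a log2 difference of -0.24 (SE 0.061), 1.18-fold lower in sleep-deprived mice (adjusted p = 0.027, limma), with 8 of 8 arrays below the undisturbed mean. The call depends on single arrays, since it ended without sleep-deprived replicate 5 or 7 or undisturbed replicate 4 or 8. Over all 17 arrays left out in turn, the adjusted p ran from 0.019 to 0.057 (limma). Without the arrays rich in choroid plexus markers the difference was -0.15 (adjusted p = 0.44, limma), and the mean of the gene's 2 probe sets did not pass (adjusted p = 0.12, limma). The other 66 genes did not pass, 15 of the 67 had an unadjusted p under 0.05, and the median difference was -0.015 against 0.0016 over all genes.

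By role, 13 genes of uptake and binding had a median difference of 0.026 and none passed. The widest differences there were -0.20 (SE 0.073) for the metal importer Slc39a8 and 0.18 (SE 0.16) for the metalloreductase family member Steap1. The 4 storage genes had a median of -0.078 and none passed. Among them the iron chaperones Pcbp2 and Pcbp1, which deliver iron to ferritin, differed by -0.13 (SE 0.055) and -0.11 (SE 0.044). With the mean of its 3 probe sets Pcbp2 passed (adjusted p = 0.033, limma). Of 3 export genes, the ferroxidases, none passed, with 0.14 (SE 0.086) for Heph and -0.072 (SE 0.048) for Hephl1. Hephl1 was dim, at 4.77 in sleep-deprived and 4.84 in undisturbed mice. Among 7 genes of sensing and hepcidin control the median was -0.053 and none passed. Bmp6, the ligand that raises hepcidin in liver, differed by -0.20 (SE 0.17), and Neo1 (neogenin), a receptor that binds hemojuvelin, by -0.18 (SE 0.064). With the mean of its 5 probe sets the adjusted p of Neo1 was 0.83 (limma).

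Mitochondrial iron and iron-sulfur cluster genes numbered 19, with a median of -0.011 and none that passed. Cisd2, an iron-sulfur protein of the outer mitochondrial and endoplasmic reticulum membranes, differed by -0.14 (SE 0.043, adjusted p = 0.074, limma). With the mean of its 3 probe sets the adjusted p of Cisd2 was 0.95 (limma). Slc25a28, the mitochondrial iron importer mitoferrin 2, differed by -0.12 (SE 0.042, adjusted p = 0.11, limma). The 21 heme genes had a median of -0.023, and besides Flvcr1 none passed. Alas2, the erythroid enzyme that starts heme synthesis, differed by 0.18 (SE 0.082), and Cd163, the macrophage receptor for hemoglobin bound to haptoglobin, by 0.17 (SE 0.064). Cd163 was dim, at 4.49 in sleep-deprived and 4.32 in undisturbed mice.

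**Figure D5:**
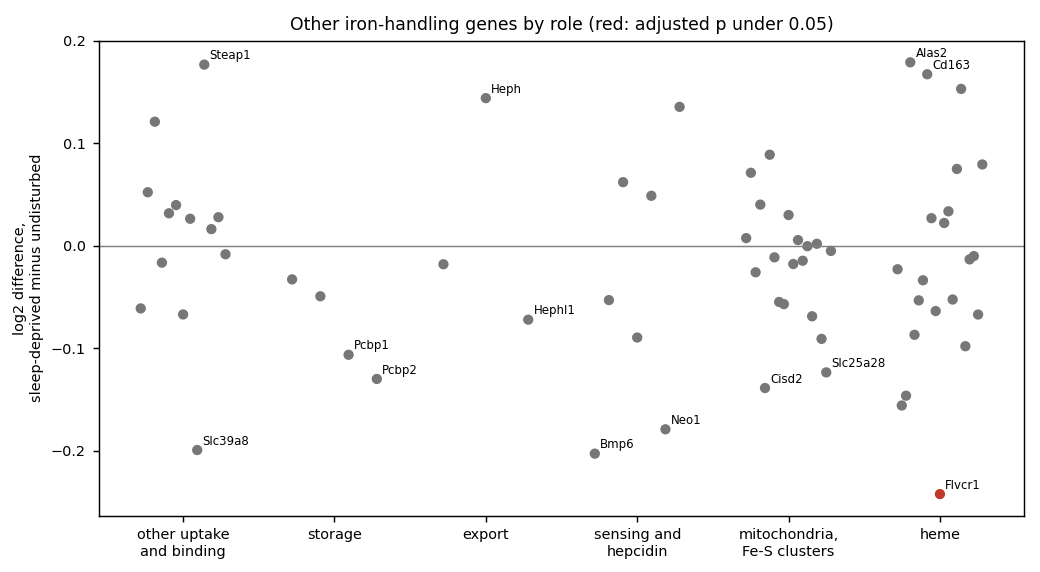
Log2 difference, sleep-deprived minus undisturbed, of 67 other iron-handling genes by role, 1 point per gene at its brightest probe set. Flvcr1 (red) at -0.24 is the only gene with an adjusted p under 0.05, and the others lie between -0.20 and 0.18.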

How the data were processed

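The authors deposited a log2 signal for each probe set on each array, made by RMA with the affy package, per the submitters' processing notes. Base 2 was inferred from values of 2.90 to 14.8. The sources used here give no versions or filters. RMA gives all arrays a common distribution of probe intensities, which hides a shift of most genes at once. It also compresses differences of dim probe sets. The deposited probe set values still differed in level between arrays, with medians of 6.14 to 6.22. No batch or scan date was used. Each array is a separate animal, and the number of arrays limits the precision.

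The 2 groups were fitted in limma 3.58.1 (lmFit and eBayes, R 4.3.3), with Benjamini-Hochberg adjustment over 45037 probe sets or over 18193 genes, each read by its brightest probe set. The 64 control probe sets were fitted apart. Symbols came from the platform annotation, where 34945 probe sets carried 1 symbol, 932 several and 9160 none, and all 8 measured genes matched a RefSeq table by Entrez identifier. Correlations used group-centred values and 100000 permutations within groups (numpy 2.4.6, Python 3.11.15). The fit was tested on simulated data.

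The members, lists and tests were chosen with earlier results of these data known. Named were every member probe set, called genes of the wider iron list, the 2 uncalled genes per role with the widest difference, Ttr, and the 5 genes most like Tfrc. The same for Trf could not be applied. Tek, Slco1a4, Opalin and Aspa were named because they passed. Alternatives were quantile normalization, median centring, a mean signal of at least 6, trend and robust eBayes, array weights, a replicate block, covariates for RNA quality, choroid plexus and oligodendrocyte markers, the mean of a gene's probe sets, and each array left out. The endothelial covariate and leaving out the arrays rich in choroid plexus markers were chosen after seeing the data.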

Additional observations from a re-analysis of the deposited data

Results flagged for a closer look

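Of 72 groups of arrays, 5 held 1 array far from the others, and chance gives about 1 in 20. Slc11a2 1426441_at was 7.36 on sleep-deprived replicate 3, against 7.62 to 7.82 on the other sleep-deprived arrays. Slc40a1 1448566_at was 6.77 on sleep-deprived replicate 1, with the other sleep-deprived arrays at 6.99 to 7.14. Steap3 1423468_at was 5.89 on undisturbed replicate 1, and the next lowest array of that group read 6.07. Aco1 1423644_at was 7.99 on undisturbed replicate 8, where the others of the group read 8.24 to 8.48. Neo1 was 9.29 on undisturbed replicate 5, and 9.56 to 9.84 on the remaining undisturbed arrays.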

How the results depend on the processing

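For the member probe sets, the refits below reuse the contrast known when the genes were chosen, so a kept call is no independent support. Tfrc 1452661_at kept its call in 11 of 11 settings and in 17 of 17 fits with 1 array left out, with differences of -0.38 to -0.32. Slc11a2 1426441_at kept its call in 10 of 11 settings and lost it without the arrays rich in choroid plexus markers, where its difference was -0.25. Tfrc 1422966_a_at was called in 5 of 11 settings and Slc40a1 1417061_at in 3 of 11. The number of the 20 probe sets called, 2 as reported, was 4 with trend and robust eBayes and 1 without the arrays rich in choroid plexus markers. With a mean signal of at least 6, which only 14 of the 20 reach, it was 4. It ran from 2 to 4 with 1 array left out, and was 4 without sleep-deprived replicate 4. For the wider iron list, with 1 call, the count was 3 with a mean signal of at least 6, and 0 with the oligodendrocyte covariate, with the endothelial covariate or without the arrays rich in choroid plexus markers. With 1 array left out it ran from 0 to 3. It was 3 without undisturbed replicate 5, 2 without sleep-deprived replicate 4 or 8 or undisturbed replicate 9, and 0 without sleep-deprived replicate 5 or 7 or undisturbed replicate 4 or 8. Of the 15 Tfrc relations, where 11 passed, 12 passed by r on sleep-deprived arrays alone and 7 on undisturbed arrays alone, 9 without the 2 farthest arrays, 15 without the arrays rich in choroid plexus markers, and 10 to 15 with 1 array left out. Relations with marker lists ran from 0 to 2 (2 without undisturbed replicate 2, 1 without sleep-deprived replicate 4), and those among the genes by r from 0 to 1 (1 without sleep-deprived replicate 5 or 6). The mean difference of the 3 transferrin receptor controls ran from -0.28 to -0.21. With the replicate number as a block, 3 of the 20 probe sets and 4 genes of the wider list were called. Same-numbered arrays correlated at -0.068 to 0.39, with 4 of 8 pairs over 0.1. Of 8 sleep-deprived arrays, 1 correlated best with its own number. Whether the numbers pair the animals was not tested. No called difference reversed its direction under these settings. The difference of 6 uncalled probe sets (of Steap3, Slc11a2, Fth1, Hamp, Ireb2 and Aco1) took both signs over them, within -0.070 to 0.086. The cause of these shifts was not tested.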
